A study of Mus musculus with 2 samples.

Results

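The 10 genes described here were Bhlhe41, Zbtb32, Cd5, Cd9, Cd1d1, Plac8, Ptpn22, Nt5e, Basp1 and Cd44, which serve as markers of B-1 cells, memory B cells and neighbouring B cell states. They were taken by symbol from the 31053 genes of the count matrices, and all 10 had at least 1 UMI (unique molecular identifier, the tag that marks 1 captured RNA molecule) on both days. The study sequenced flow-sorted B cells from the colonic lamina propria of female C57BL/6J mice by droplet-based 3′ single-cell RNA sequencing. The day 0 group was an untreated control, and the day 14 group had received 2% DSS (dextran sodium sulfate, a detergent that injures the colonic epithelium) in the drinking water for 7 days and then recovered for 7 days. Each group was 1 library, and how many mice contributed cells to it was not stated in the labels. There is therefore no replicate check on any difference between the days, and no test was made. The 95% intervals given below cover counting error only, and "higher" and "lower" describe these libraries.

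B-1 cells are a self-renewing B cell lineage, common in body cavities, that secretes natural IgM and contributes to intestinal IgA, and the B-1a subset carries CD5 on its surface. Memory B cells arise after antigen exposure, many of them from germinal centers, and often express switched heavy chains such as IgA or IgG. The genes that mark the 2 states overlap with each other and with those of marginal zone B cells and plasma cells, so a single marker does not name a cell.

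The day 0 library held 3290 cells with a median of 2278.5 UMIs, and the day 14 library 4692 cells with a median of 2241.5 UMIs. The libraries shared 17 barcode sequences. Levels are given as CPM, UMIs divided by the summed UMIs of genes other than immunoglobulin and mitochondrial genes and multiplied by 1000000, a scale on which 3′ counts do not grow with transcript length. The labelled cell type was borne out by its markers, since 99.8% of day 0 cells and 99.7% of day 14 cells had at least 2 UMIs of a list of 10 mature B cell genes. Plasma cell markers, at 10 or more UMIs of 16 genes, were present in 48 cells at day 0 and 43 at day 14. Over all cells of each library, 15 and 5 lay near that limit on either side, at 8 to 12 UMIs. Of the T and NK cell list of 14 genes, 2 were at 0 at day 0 and 4 at day 14, and Cd2, which mouse B cells also express, gave 97.1% and 97.5% of its UMIs. The neutrophil genes S100a8 and S100a9 were at 0 UMIs at day 0 and at 263 and 125 UMIs at day 14. Their part in the results was not tested.

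Among the members, Ptpn22 was higher at day 14, Bhlhe41, Nt5e and Basp1 were lower, and Cd9, Cd1d1, Plac8 and Cd44 lay within 1.5-fold. A gene was counted as higher or lower when its CPM differed by at least 1.5-fold and it had at least 50 UMIs over both libraries, which 8 of the 10 members reached and Zbtb32 and Cd5 did not. Of the 8924 genes with that many UMIs, 1.31% were higher and 4.94% were lower at day 14. Against these shares stood 1 of 8 members higher and 3 of 8 lower. Over all genes 117 were higher and 441 lower on the CPM scale, against 181 and 299 when TMM factors (edgeR's trimmed mean scaling) were used, while the 4 members stayed on their sides of the limit. The median log2 ratio of the 8 members was -0.12, and that of all 8924 genes was -0.09.

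**Figure D1:**
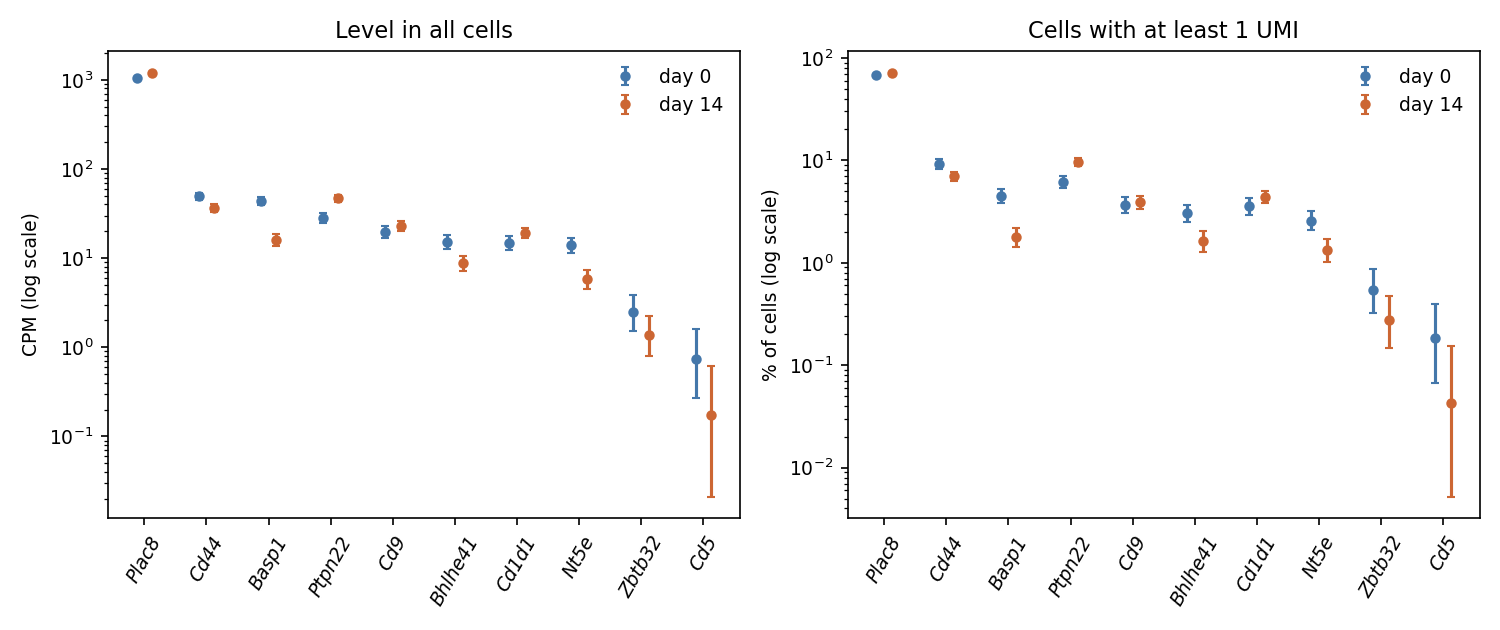
Level of each member in CPM (left, log axis) and share of cells with at least 1 UMI (right, log axis) at day 0 and day 14; points are the libraries and bars are 95% Poisson (left) or Clopper-Pearson (right) intervals, which cover counting error only. Plac8 lies far above the other members at 1053 and 1202 CPM, Ptpn22 is higher at day 14, and Basp1, Nt5e and Bhlhe41 are lower.

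At day 0 the order of levels ran from Plac8 at 1053 CPM through Cd44 at 49.3, Basp1 at 44.1, Ptpn22 at 28.4, Cd9 at 19.5, Bhlhe41 at 15.1, Cd1d1 at 14.8 and Nt5e at 14.0 to Zbtb32 at 2.47 and Cd5 at 0.742 CPM. The intervals of Cd44 and Basp1 overlapped, as did those of Cd9, Bhlhe41, Cd1d1 and Nt5e, and those of Zbtb32 and Cd5, so these neighbours were not separated beyond counting error. Plac8 apart, no member was detected in more than 9.72% of the cells of a library.

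The first of the transcription factors, Bhlhe41, is a basic helix-loop-helix repressor required for the B-1a compartment. It gave 122 UMIs in 100 of 3290 day 0 cells, 15.1 CPM (12.5 to 18.0), and 102 UMIs in 76 of 4692 day 14 cells, 8.80 CPM (7.17 to 10.7). The intervals did not overlap, and the ratio of day 14 to day 0 was 0.583 (0.444 to 0.765). Plasma marker cells held 7 of these UMIs at day 0 and 31 at day 14, and without them the ratio was 0.426. When heavy chain states were given equal shares on both days the ratio was 0.690, which is within 1.5-fold. None of the 86 and 88 barcodes that the authors' normalized tables leave out, most of them with T cell markers, had a Bhlhe41 UMI, which allows shares of up to 3.49% and 3.41%.

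Zbtb32, a BTB zinc finger repressor that limits recall responses of memory B cells, was detected in 18 cells at day 0 and 13 at day 14. Its 20 and 16 UMIs corresponded to 2.47 CPM (1.51 to 3.82) and 1.38 CPM (0.789 to 2.24), and these intervals overlapped. No cell had more than 2 UMIs, so differences of Zbtb32 between days were not detectable at this depth.

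Among the surface proteins, Cd5 is an inhibitory receptor of the scavenger receptor family that defines B-1a cells. It was found as single UMIs in 6 of 3290 cells at day 0 and in 2 of 4692 at day 14, or 0.182% (0.0670% to 0.397%) and 0.0426% (0.00516% to 0.154%) of cells. The left-out barcodes held more Cd5 than all the cells together, with 11 UMIs at day 0 and 10 at day 14, in 9 barcodes each, all of which had at least 2 UMIs of T and NK cell genes. No switched cell had a Cd5 UMI, which allows shares of up to 2.56% of 117 cells and 3.33% of 90. The defining B-1a marker was thus near 0 in both libraries, and the cells with other members are not called B-1 cells here.

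Cd9, a tetraspanin found on B-1, marginal zone and plasma cells, gave 158 UMIs at day 0, spread over 120 cells, and 266 UMIs over 184 cells at day 14. The levels were 19.5 CPM (16.6 to 22.8) and 22.9 CPM (20.3 to 25.9), with overlapping intervals and a ratio of 1.17 (0.961 to 1.44). The direction depended on depth: without cells above 2 times the median UMIs the ratio was 0.959, and with each cell thinned to 1000 UMIs it was 0.775. The thinned share of cells with Cd9 was 1.66% (1.25% to 2.16%) at day 0 and 1.30% (0.990% to 1.66%) at day 14, so no order is read from it.

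Cd1d1 encodes the lipid-presenting molecule CD1d, which is high on marginal zone and regulatory B cells. Its 120 UMIs at day 0 and 223 at day 14 corresponded to 14.8 CPM (12.3 to 17.7) and 19.2 CPM (16.8 to 21.9). The ratio was 1.30 (1.03 to 1.63), below the 1.5-fold limit. The near-identical gene Cd1d2 was not analysed here, and Cd1d1 counts are uncertain to the extent that reads are shared with it.

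Cd44, the hyaluronan receptor and a marker of antigen-experienced lymphocytes, was the most widely detected member after Plac8 at day 0, in 303 cells or 9.21% (8.24% to 10.2%). At day 14 it was detected in 328 cells or 6.99% (6.28% to 7.76%). Its level was 49.3 CPM (44.6 to 54.4) at day 0 and 36.6 CPM (33.2 to 40.2) at day 14, a ratio of 0.742 (0.645 to 0.852), lower but within 1.5-fold.

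Nt5e encodes CD73, the ectoenzyme that turns extracellular AMP into adenosine and marks subsets of memory and germinal center B cells. At day 0 it gave 113 UMIs, found in 85 cells, and at day 14 it gave 68, found in 62 cells. The levels were 14.0 CPM (11.5 to 16.8) and 5.86 CPM (4.55 to 7.43), which do not overlap, with a ratio of 0.420 (0.306 to 0.572). Of 8 other tested genes of a list on adenosine production, uptake and sensing, 2 were lower at day 14 and none was higher. These were Enpp1, an ectonucleotidase, from 9.39 to 5.35 CPM, and Adora2a, an adenosine receptor, from 8.16 to 4.66 CPM. Cd38, a nucleotide-consuming ectoenzyme and the most abundant of the list, was at 93.8 and 111 CPM.

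Ptpn22 encodes a tyrosine phosphatase that restrains antigen receptor signalling through Src family kinases. It was the one member counted as higher at day 14, from 230 UMIs in 203 cells to 544 UMIs in 456 cells. The day 0 level was 28.4 CPM (24.9 to 32.3) and the day 14 level 46.9 CPM (43.1 to 51.0), 1.65 (1.41 to 1.93) times as high, and the share of cells was 6.17% and 9.72%. With cells thinned to 1000 UMIs the shares were 2.43% (1.93% to 3.01%) and 4.17% (3.61% to 4.79%), which do not overlap either. Of 23 tested partners of Cd5 and Ptpn22 signalling, such as kinases, adaptors and inhibitory receptors, none was higher and 1 was lower. This was the Src family kinase Lck, from 29.9 to 19.6 CPM, while the receptor chain gene Cd79a stood at 2168 and 2222 CPM.

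Plac8 encodes a small cysteine-rich protein used as a marker of innate-like B cells, but here it was found in most cells. It was detected in 2251 cells or 68.4% (66.8% to 70.0%) at day 0 and in 3353 cells or 71.5% (70.1% to 72.7%) at day 14. Its level was 1053 CPM (1031 to 1075) and 1202 CPM (1182 to 1222), a ratio of 1.14 (1.11 to 1.17). The difference exceeded counting error but was within 1.5-fold.

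Basp1, a membrane-bound signalling protein also induced in germinal center B cells, showed the lowest ratio among the 8 members with enough UMIs. Its 357 UMIs of day 0 lay in 148 cells and its 186 UMIs of day 14 in 83. The level was 44.1 CPM (39.7 to 48.9) at day 0 and 16.0 CPM (13.8 to 18.5) at day 14, with a ratio of 0.364 (0.303 to 0.435). Plasma marker cells held 158 and 78 of these UMIs. In the cells without plasma markers Basp1 was still lower at day 14, at 9.63 CPM (7.90 to 11.6) against 25.7 CPM (22.3 to 29.6) at day 0.

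The stretches upstream of the 4 genes counted as higher or lower are shown because these genes passed the 1.5-fold limit among the 8 members with at least 50 UMIs, and nothing about their control was measured here. Each is the 250 bases before a RefSeq transcription start (GRCm38.p6), 5′ to 3′ on the strand of the gene, with capitals marking a match to a searched motif. RefSeq promoter entries were matched for 9 of the 10 members, with 12 starts, and Ptpn22 is shown at the second of its 2 starts. The positions are chr6:145865421-145865670 (minus strand) for Bhlhe41, chr9:88327359-88327608 (plus) for Nt5e, chr15:25413765-25414014 (minus) for Basp1 and chr3:103860027-103860276 (plus) for Ptpn22.
Bhlhe41: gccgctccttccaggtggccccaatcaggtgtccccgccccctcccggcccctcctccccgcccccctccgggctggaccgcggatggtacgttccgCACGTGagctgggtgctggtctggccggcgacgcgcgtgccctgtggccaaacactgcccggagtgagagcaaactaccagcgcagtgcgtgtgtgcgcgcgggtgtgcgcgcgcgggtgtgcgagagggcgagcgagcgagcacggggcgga
Nt5e: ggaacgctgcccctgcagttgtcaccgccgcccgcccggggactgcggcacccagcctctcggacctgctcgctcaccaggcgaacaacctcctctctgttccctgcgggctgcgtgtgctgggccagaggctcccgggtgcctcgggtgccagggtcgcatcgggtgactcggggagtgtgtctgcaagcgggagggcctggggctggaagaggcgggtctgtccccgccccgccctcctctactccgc
Basp1: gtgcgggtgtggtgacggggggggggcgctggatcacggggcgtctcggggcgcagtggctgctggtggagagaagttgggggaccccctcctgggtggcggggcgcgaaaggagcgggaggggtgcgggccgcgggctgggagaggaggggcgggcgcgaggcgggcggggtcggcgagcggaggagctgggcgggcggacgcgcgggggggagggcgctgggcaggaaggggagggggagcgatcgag
Ptpn22: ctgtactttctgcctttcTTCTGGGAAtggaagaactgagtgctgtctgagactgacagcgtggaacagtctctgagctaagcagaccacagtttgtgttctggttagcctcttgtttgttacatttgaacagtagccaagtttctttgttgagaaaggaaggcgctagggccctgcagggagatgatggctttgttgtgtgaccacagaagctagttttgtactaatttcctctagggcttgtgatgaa

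Motifs were searched on both strands of windows of 300 bases, 250 before and 50 after each start. The E-box CACGTG, the letters bound by helix-loop-helix factors, was in 7.15% of 32851 promoters and, among members, only in that of Bhlhe41. The interferon-gamma activated site TTCNNNGAA was in 8.30% of promoters and, among members, at the second start of Ptpn22, while the window of its first start held none of the searched motifs. The kappaB letters GGG and TTTCC with any 2 bases between them were in 1.63% and, among members, in that of Cd9. Interferon response letters, GAAA and again GAAA with any 2 bases between, and Ets-IRF letters, GGAA and GAAA with any 2 bases between, were in 3.44% and 2.72% of promoters and in none of the 12 windows. These motifs share their last letters, so 1 stretch can come close to both. The upstream stretches of Basp1, Bhlhe41 and Nt5e held 78.8%, 73.6% and 72.0% G and C, and that of Ptpn22 46.0%. A match is a description of letters and shows no binding.

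The members were then placed by heavy chain state. A cell was assigned to a class when that class had at least 3 UMIs and more than 50% of its heavy chain constant region UMIs, and IgM cells were split by whether an Ighd UMI was present. At day 0, 1684 cells were IgM+IgD, 609 were IgM without IgD, 89 were IgA and 28 were IgG, and at day 14 the numbers were 2389, 781, 62 and 28. The other 880 and 1432 cells were undetermined. Switched cells, IgA and IgG together, made up 3.56% (2.95% to 4.25%) at day 0 and 1.92% (1.55% to 2.35%) at day 14. They were deeper than IgM+IgD cells, with medians of 3597 and 4477.5 UMIs against 2348.5 and 2368, which raises shares of cells with a UMI but not CPM.

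In switched cells 5 of the 8 members were at least 1.5-fold higher than in IgM+IgD cells on both days with both intervals above 1, namely Bhlhe41, Cd9, Nt5e, Basp1 and Cd44. By the same rule 8.61% of 8924 genes were higher in switched cells and 3.77% lower, and no member was lower. With cells thinned to 1000 UMIs, 2 members passed, Bhlhe41 and Basp1, and Cd9 did not pass under 6 of the 7 alternatives tried. Ranked by the smaller of the ratios of both days among the 8924 genes, Basp1 was at place 23, Nt5e at 52, Cd44 at 134, Bhlhe41 at 140 and Cd9 at 602. Cd1d1 was at place 8397.

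Basp1 differed most between the states. It stood at 361 CPM (312 to 415) in switched cells against 9.79 CPM (7.02 to 13.3) in IgM+IgD cells at day 0, and at 185 CPM (149 to 228) against 4.96 CPM (3.37 to 7.04) at day 14. The ratios were 36.9 (26.2 to 52.9) and 37.4 (24.6 to 58.2). Switched cells thus held 55.7% of all Basp1 UMIs at day 0 and 48.9% at day 14. IgM cells without IgD lay between, at 32.4 CPM (24.0 to 42.7) and 14.5 CPM (9.74 to 20.9).

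Nt5e was at 65.3 CPM (45.7 to 90.4) in switched and 4.77 CPM (2.92 to 7.37) in IgM+IgD cells at day 0. At day 14 it was at 34.6 CPM (20.2 to 55.5) and 2.56 CPM (1.46 to 4.16). The ratios were 13.7 (7.7 to 24.9) and 13.5 (6.43 to 28.6). The highest value, 122 CPM (66.9 to 205), was in the 28 IgG cells of day 0, of which 9 had an Nt5e UMI, and at day 14 the IgG cells had 3 UMIs in 3 of 28 cells.

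Cd44 was at 172 CPM (139 to 211) in switched cells at day 0 and 214 CPM (175 to 259) at day 14, against 33.9 and 25.9 CPM in IgM+IgD cells. It was detected in 46 of 89 IgA cells at day 0 and 40 of 62 at day 14. The ratios of switched to IgM+IgD cells were 5.08 (3.88 to 6.63) and 8.25 (6.39 to 10.6).

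Bhlhe41 was at 54.9 CPM (35.2 to 81.7) in IgA cells and 11 CPM (8.04 to 14.6) in IgM+IgD cells at day 0, and at 92.7 CPM (63.8 to 130) and 5.76 CPM (4.03 to 7.98) at day 14. Of the cells positive for Bhlhe41, 21 of 100 at day 0 and 19 of 76 at day 14 were IgA or IgG, so most were not. Cd9 was at 36.3 CPM (22.2 to 56.0) and 50.9 CPM (33.0 to 75.2) in switched cells, 2.08 and 2.32 times the IgM+IgD level. It was also higher in IgM cells without IgD, at 1.63 (1.10 to 2.41) and 1.67 (1.24 to 2.24) times that level.

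Ptpn22 was at 1.46 (0.871 to 2.35) and 1.32 (0.867 to 1.94) times the IgM+IgD level in switched cells, intervals that include 1. Plac8 was lower in switched cells as a whole, at 0.765 (0.690 to 0.846) and 0.529 (0.470 to 0.594) times the IgM+IgD level, which misses the limit at day 0. In IgA or IgG cells without plasma markers, however, Plac8 was at 1.28 (1.14 to 1.42) and 1.15 (1.01 to 1.30) times that level. It was highest in IgM cells without IgD, at 1311 CPM (1254 to 1369) and 1542 CPM (1488 to 1598). Cd1d1 had 1 UMI in 117 switched cells at day 0 and 10 UMIs in 7 of 90 at day 14, with none in the 28 IgG cells of either day, which allows up to 10.7%. Of the cells positive for Zbtb32, 9 of 18 at day 0 and 4 of 13 at day 14 were IgM cells without IgD. Switched cells, though few, were 3 of the 18 and 3 of the 13. The Zbtb32 level in switched cells was 6.08 (1.21 to 28.2) and 6.37 (1.03 to 29.8) times the IgM+IgD level, on only 4 and 3 UMIs.

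**Figure D2:**
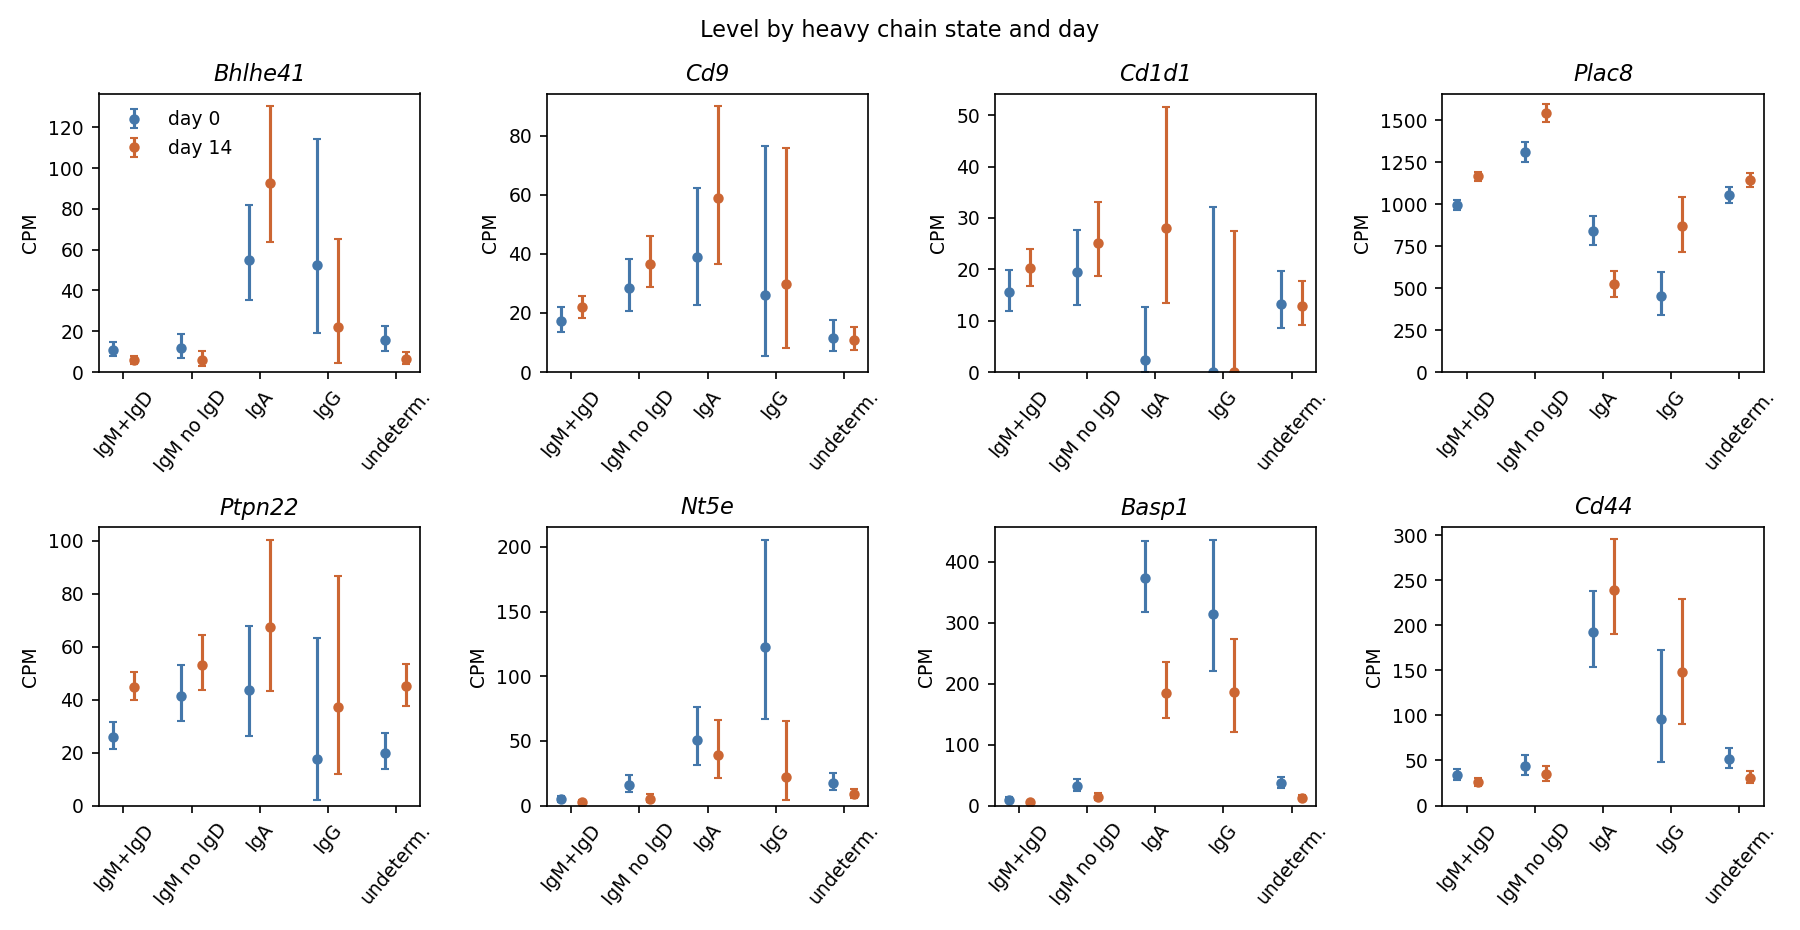
CPM of the 8 members with at least 50 UMIs in each heavy chain state at day 0 and day 14 (linear axes from 0; bars are 95% Poisson intervals, counting error only). Basp1, Cd44 and Bhlhe41 are highest in IgA cells on at least 1 day, Nt5e is highest in IgG cells at day 0, and Plac8 is highest in IgM cells without IgD.

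Part of the switched signal lay in plasma marker cells, of which 34 of 48 at day 0 and 35 of 43 at day 14 were IgA or IgG. These had medians of 12325 and 13917 UMIs. Basp1 was detected in 33 of 48 and 23 of 43 of them, and Cd44 in 30 and 31. In the 83 and 55 IgA or IgG cells without plasma markers Basp1 was at 212 CPM (161 to 273) and 174 CPM (120 to 244), still 21.6 (14.3 to 33.1) and 35.1 (20.8 to 59.2) times the IgM+IgD level. Cd44 was at 176 CPM (130 to 233) and 211 CPM (151 to 287) there, 5.19 and 8.14 times that level.

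Nt5e was higher in switched cells without plasma markers than in plasma marker cells. It was at 108 CPM (72.7 to 154) and 84.4 CPM (48.2 to 137) in the former, against 44.2 CPM (25.3 to 71.8) and 7.83 CPM (1.61 to 22.9) in the latter. The plasma marker limit was not adjusted for depth. The plasma cell list was at 900 and 482 CPM in cells with Nt5e but not Basp1, and at 1197 and 1124 CPM in cells with both. In cells with neither gene it was at 1662 and 1555 CPM. Nt5e in plasma marker cells is therefore not read as expression by plasma cells. Bhlhe41 was at 82.6 CPM (52.3 to 124) in switched cells without plasma markers against 19.3 CPM (7.77 to 39.8) in plasma marker cells at day 0, whereas at day 14 it was at 36.9 CPM (14.8 to 76.1) against 80.9 CPM (55.0 to 115), with overlapping intervals. Cd9 was higher than in IgM+IgD cells in the plasma marker cells, at 2.85 (1.60 to 4.83) and 3.33 (2.14 to 5.03) times that level, and stood at 1.24 (0.439 to 2.82) and 0.722 (0.147 to 2.15) times it in the other switched cells, intervals that include 1. Plac8 showed the reverse, at 381 CPM and 183 CPM in plasma marker cells and 1271 CPM and 1340 CPM in the other switched cells.

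Within heavy chain states the direction between days was kept for some members and not for others. The Basp1 ratio was below 1 in all 5 states, at 0.507 (0.307 to 0.828) in IgM+IgD cells, 0.497 (0.368 to 0.666) in IgA cells and 0.330 (0.213 to 0.504) in undetermined cells, while in IgG cells its interval, 0.590 (0.339 to 1.01), included 1. The Ptpn22 ratio was above 1 in all 5, at 1.72 (1.38 to 2.17) in IgM+IgD cells and 2.26 (1.55 to 3.37) in undetermined cells. Its interval included 1 in IgM cells without IgD, at 1.28 (0.932 to 1.78). The same held in IgA cells, at 1.55 (0.814 to 2.99), and in IgG cells, at 2.12 (0.348 to 22.3). The Nt5e ratio was below 1 in all 5, with 0.310 (0.133 to 0.668) in IgM cells without IgD. Its interval included 1 in IgM+IgD cells, at 0.536 (0.260 to 1.09), and in IgA cells, at 0.781 (0.370 to 1.60).

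Bhlhe41 was lower at day 14 in IgM+IgD cells, with a ratio of 0.525 (0.329 to 0.829), and in undetermined cells, with 0.406 (0.211 to 0.760). In IgA cells the ratio was 1.69 (0.968 to 2.98), an interval that includes 1, and the difference between states was not tested. Cd44 was at 0.765 (0.607 to 0.965) in IgM+IgD cells and 1.24 (0.908 to 1.70) in IgA cells. Plac8 was at 1.17 (1.13 to 1.22) in IgM+IgD and 1.18 (1.11 to 1.24) in IgM cells without IgD, and at 0.620 (0.517 to 0.742) in IgA cells. Without plasma marker cells the IgA ratio of Plac8 was 0.845 (0.689 to 1.03).

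**Figure D3:**
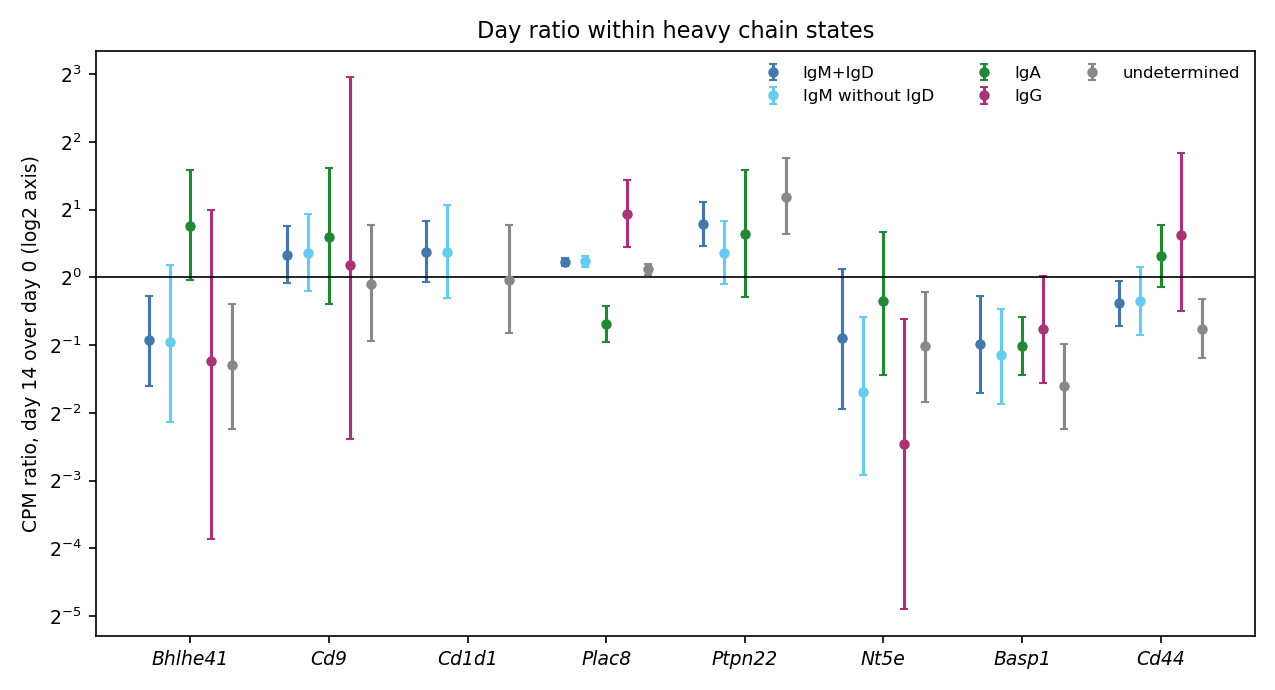
CPM ratio of day 14 over day 0 (log2 axis) for each member within each heavy chain state, with 95% exact conditional intervals for counting error, shown where both days had at least 3 UMIs. Basp1 and Nt5e lie below 1 and Ptpn22 above 1 in every state shown, whereas Bhlhe41, Cd44 and Plac8 lie on different sides of 1 in IgM+IgD and IgA cells.

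Joint detection was set against the number of cells that independent detection would give within 10 bins of UMIs per cell, since deep cells show more genes of any kind. Of the 45 pairs of members, 23 had a depth-matched number of at least 5 cells on each day. In 3 of these the observed number was at least 1.5 times the depth-matched one on both days, which was the case for 1.65% of all pairs of a member and a tested gene. This share differed by member. It was 7.08% for Basp1, 2.23% for Bhlhe41, 2.18% for Cd44, 1.39% for Cd9 and 0.555% for Ptpn22. For Plac8, found in most cells, it was 0 of 8919. Basp1 and Cd44 were together in 55 cells against 25.1 at day 0, a ratio of 2.19 (1.65 to 2.85), and in 32 against 10.7 at day 14, 3.0 (2.05 to 4.23). Cd9 and Ptpn22 were together in 21 cells against 12.4, 1.70 (1.05 to 2.59), and in 48 against 28.0, 1.72 (1.27 to 2.28). Bhlhe41 and Cd44 were together in 20 cells against 13.3, 1.51 (0.920 to 2.33), and in 23 against 7.82, 2.94 (1.86 to 4.41). At day 0 the interval of the Bhlhe41 and Cd44 pair included 1, and with 20 bins this pair no longer passed. Without cells above 2 times the median UMIs none of the 14 pairs left with enough cells passed.

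Some pairs below the minimum also exceeded the depth-matched number. Nt5e and Basp1 were together in 28 cells against 8.33 at day 0 and in 14 against 1.91 at day 14. Of these cells, 9 of 28 and 6 of 14 were switched, 1 and 0 were IgM+IgD, and 5 and 3 had plasma markers. The germinal center list was at 1780 and 834 CPM in them, against 625 and 712 CPM in cells with Basp1 only, 647 and 183 CPM in cells with Nt5e only, and 180 and 156 CPM in cells with neither gene. The cell cycle list was at 3671 and 3372 CPM in cells with both genes and at 704 and 631 CPM in cells with neither. Bhlhe41 and Basp1 were together in 16 cells against 7.24 and in 15 against 2.65. Cd1d1 with Basp1 and Plac8 with Basp1 reached the minimum and lay below the depth-matched number. Cd1d1 and Basp1 were together in 2 cells against 7.83, 0.256 (0.0309 to 0.923), and in 4 against 7.10, 0.563 (0.153 to 1.44). The interval of day 14 includes 1. Plac8 and Basp1 were together in 90 cells against 113, 0.80 (0.643 to 0.983), and in 42 against 69.2, 0.607 (0.437 to 0.820).

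**Figure D4:**
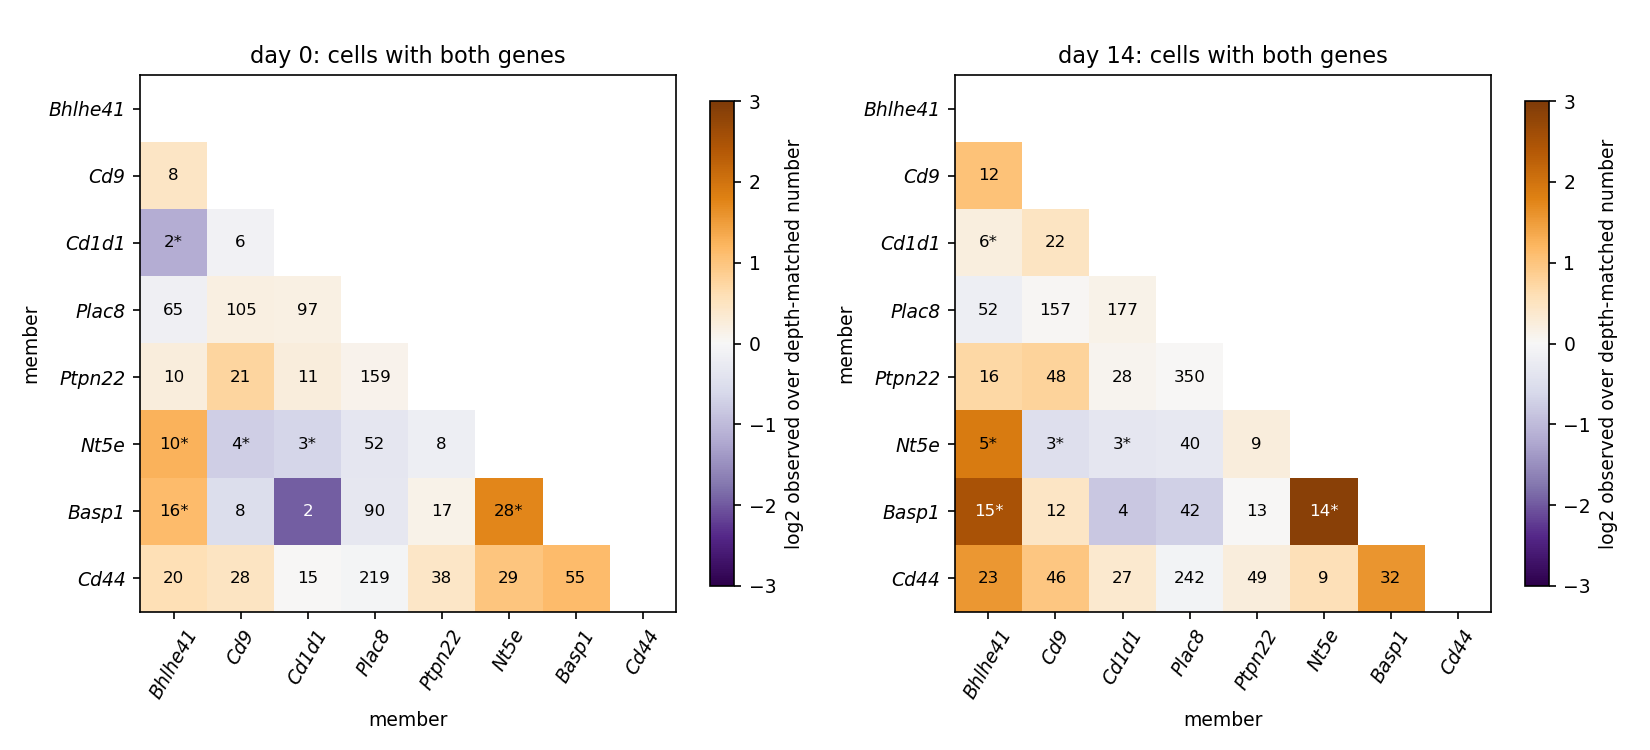
Cells in which both members of a pair were detected (number in each square) at day 0 and day 14, with the colour giving log2 of the observed over the depth-matched number; an asterisk marks pairs with fewer than 5 depth-matched cells on at least 1 day. Basp1 with Nt5e and Basp1 with Cd44 are above the depth-matched number on both days. Basp1 with Cd1d1 is below it, with an interval that includes 1 at day 14.

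Counting members per cell, Plac8 apart, 3 or more were detected in 26 of 117 switched cells at day 0 and 28 of 90 at day 14. In IgM+IgD cells this was the case for 5 of 1684 and 15 of 2389 cells. Most cells had none, 2471 of 3290 at day 0 and 3583 of 4692 at day 14. The greater depth of switched cells was not matched in this count, and 34 of the 117 and 35 of the 90 had plasma markers. No background from other genes was computed, so the count is not read as joint expression of the members.

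What else the positive cells expressed was described with lists of genes as summed CPM in cells with at least 1 UMI of a member over cells with none. Depth was not matched in these ratios, so deep cells are over-represented among positive cells. Plasma marker cells had medians of 12325 and 13917 UMIs, and the other cells 2271 and 2234. The plasma cell list was far higher in cells positive for Basp1, at 24.9 and 22.3 times, and for Cd44, at 18.2 and 34.4 times. In cells positive for Bhlhe41 it was at 6.24 and 17.4 times, for Cd9 at 8.09 and 9.75 times, and for Ptpn22 at 7.98 and 4.73 times. It was lower on both days in cells positive for Nt5e, at 0.207 and 0.246 times, and for Zbtb32, at 0.192 and 0.181 times. Cd5 and Plac8 were also below 1 on both days, and Cd1d1 was at 0.118 and 4.38 times. Without the plasma marker cells, which that same list defines, these ratios were between 1.01 and 1.37 for the 7 genes from Basp1 to Zbtb32 named here. The level of Ptpn22 in plasma marker cells was 1.38 (0.712 to 2.46) and 1.22 (0.745 to 1.91) times that in IgM+IgD cells, intervals that include 1.

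Genes associated with B-1 cells, apart from the members, were higher in cells positive for 7 members also without plasma marker cells, Cd1d1, Plac8 and Cd5 being the others. The ratios there were 1.59 (1.40 to 1.80) and 2.00 (1.73 to 2.31) for Bhlhe41, 4.14 (3.55 to 4.81) and 5.12 (4.37 to 5.96) for Zbtb32 on 16 and 13 cells, 1.69 (1.49 to 1.91) and 2.03 (1.74 to 2.36) for Nt5e and 1.64 (1.52 to 1.76) and 1.74 (1.61 to 1.87) for Cd44. They were 1.14 (1.07 to 1.22) and 0.971 (0.914 to 1.03) for Plac8. Heavy chain state and depth were not matched in these ratios. How often cells positive for other genes have the B-1 associated list raised was not computed, so the count of 7 has no background. For Zbtb32, S100a6 of this list gave 93 of the 212 list UMIs in all positive cells at day 0, 42 of them from 1 cell, and in the 3 switched cells with Zbtb32 of each day the ratio was 0.384 and 0.479. The memory associated list differed less, at 1.26 (1.12 to 1.41) and 1.31 (1.14 to 1.49) in cells positive for Bhlhe41 and 1.28 (1.14 to 1.44) and 1.29 (1.12 to 1.48) in cells positive for Nt5e.

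Germinal center genes were higher in cells positive for Basp1, at 4.43 (4.01 to 4.90) and 4.65 (4.10 to 5.27), and without plasma marker cells at 2.72 (2.31 to 3.17) and 3.03 (2.43 to 3.74). In cells positive for Nt5e they were at 5.26 (4.67 to 5.92) at day 0 and 2.14 (1.66 to 2.71) at day 14, and without plasma marker cells at 3.28 (2.75 to 3.89) and 1.12 (0.753 to 1.60). Follicular genes were lower in cells positive for Basp1, at 0.531 and 0.563, and in cells positive for Cd9, at 0.655 and 0.673. Without plasma marker cells these ratios were closer to 1, at 0.782 (0.748 to 0.816) and 0.886 (0.833 to 0.940) for Basp1. For Cd9 they were 0.760 (0.727 to 0.795) and 0.818 (0.790 to 0.848). The interferon-gamma response list was at 1.17 (1.08 to 1.27) and 0.983 (0.938 to 1.03) in cells positive for Ptpn22. Both Ptpn22 and that list were higher at day 14, and a link between them was not tested.

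**Figure D5:**
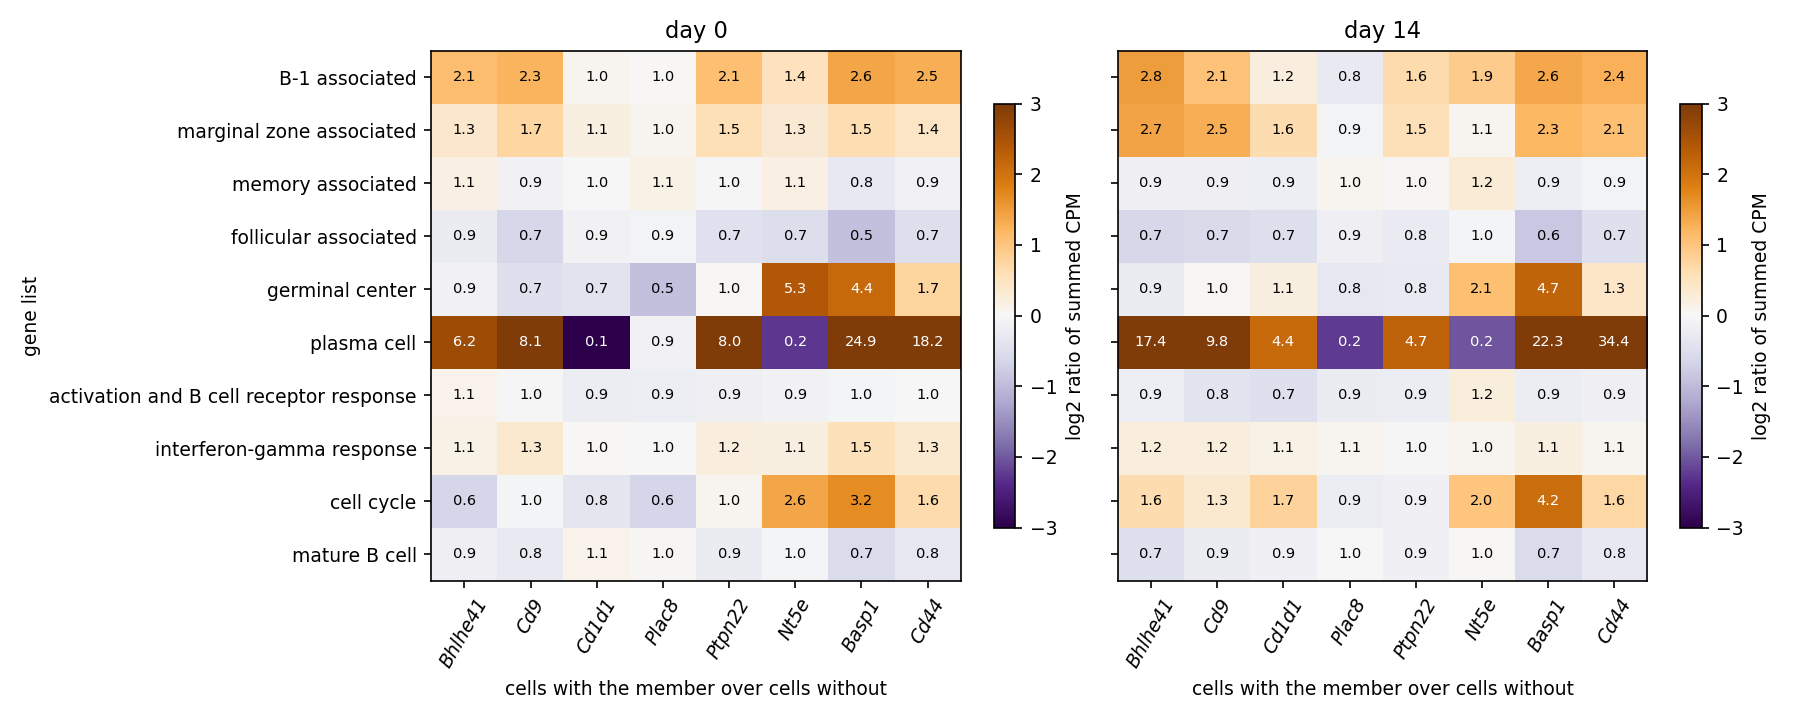
Summed CPM of gene lists in cells with at least 1 UMI of a member over cells with none, at day 0 and day 14, with the ratio printed in each square and its log2 as colour (limited to 3 either way). The plasma cell row has the largest ratios for Basp1 and Cd44 and is below 1 for Nt5e on both days, and the germinal center row is highest for Nt5e and Basp1.

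By the fixed rule the 3 genes most raised in positive cells on both days were named for each member. For Basp1 they were the proliferation genes Pclaf and Mki67 and the IgA and IgM joining chain gene Jchain, with Jchain at 36994 against 1088 CPM at day 0 and 28144 against 938 CPM at day 14. For Cd44 they were Ccr10, the chemokine receptor of IgA plasma cells, at 90.3 against 1.42 CPM and 96.6 against 0.862 CPM, and Jchain and Tmem176b. For Cd9 they were Ly6c2, Pon3 and Tnfrsf17 (the plasma cell receptor BCMA), and for Ptpn22 Ly6c2, Tnfrsf17 and Jchain. For Bhlhe41 they were Tmem176a, Tmem176b and Mt2, found in 6, 8 and 5 of 100 positive cells at day 0 and in 8, 10 and 6 of 76 at day 14. Outside plasma marker cells at most 2 UMIs of any of these 3 genes remained in the cells positive for Bhlhe41 of a day. For Basp1, Cd44, Cd9 and Ptpn22, too, most UMIs of the named genes in positive cells lay in plasma marker cells. Outside them, cells positive for Cd9 or Ptpn22 had 0 Tnfrsf17 UMIs on both days. Cells positive for Cd44 kept 1 of 97 and 0 of 112 Ccr10 UMIs. In cells positive for Basp1, 13 of 124 and 9 of 126 Pclaf UMIs remained, at 44.4 (15.7 to 142) and 13.5 (5.72 to 28.3) times the level in cells without Basp1.

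For Nt5e the rule named Basp1 itself, at 222 against 37.0 CPM and 229 against 12.5 CPM, with Pclaf and Stmn1. In Pclaf and Stmn1, 1 cell gave 24 of 49 and 22 of 30 Pclaf UMIs and 23 of 68 and 32 of 39 Stmn1 UMIs. Cd1d1-positive cells had more Plac8, at 1553 against 1031 CPM and 1679 against 1169 CPM, more Cd24a, at 673 against 439 CPM and 533 against 364 CPM, and more of the sulfotransferase gene Chst12. Plac8-positive cells had more Cd9, at 24.1 against 8.19 CPM and 26.3 against 12.3 CPM, more Fcrl5, an inhibitory receptor of innate-like B cells, at 13.5 against 3.45 CPM and 13.4 against 4.35 CPM, and more of the properdin gene Cfp.

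Zbtb32-positive cells had more S100a6, a calcium-binding protein gene of the B-1 associated list, with Rilpl2 and Pgk1 also named. S100a6 was detected in 6 of 18 positive cells at day 0 and 7 of 13 at day 14, against 3.09% and 2.84% of the other cells. The level was 986 against 27.8 CPM at day 0, with 42 of 93 UMIs from 1 cell, and 659 against 21.2 CPM at day 14. For Cd5, with 6 and 2 positive cells, the rule named Actb, Cd74 and H2-Ab1, and nothing is read from so few cells.

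Other genes associated with these B cell states were compared between days by lists, which were also chosen with results of these data known. Of 18 tested B-1 associated genes, 6 were lower at day 14 and none was higher, with a median log2 ratio of -0.32, against 4.94% lower and 1.31% higher over all genes. Switched cells were 3.56% of cells at day 0 and 1.92% at day 14, and the summed plasma cell list was at 0.561 of its day 0 level. The part of these shifts in the B-1 list was not tested. Among them Anxa2 was at 15.6 and 6.47 CPM, the lamin gene Lmna at 95.2 and 43.0 CPM and Ahnak at 22.6 and 10.6 CPM, while the intermediate filament gene Vim, the most abundant, was at 166 and 124 CPM. Of 15 memory associated genes 3 were lower and 1 was higher, with a median of -0.16. Tle3, a corepressor, was at 26.6 and 15.3 CPM, the costimulatory ligand gene Cd80 at 8.77 and 5.43 CPM, and the phosphatase gene Ptpn1 at 81.3 and 133 CPM. The most abundant of that list, Cd86, was at 239 and 212 CPM. None of 16 marginal zone associated genes was higher or lower, with a median of 0.04. Of 15 follicular associated genes 2 were lower and none was higher, and their median was -0.32, as for the B-1 list.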

How the data were processed

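The authors deposited count matrices of UMIs, written by Cell Ranger 3.0.1 according to the file headers. The submitters' processing notes name the build mm10 and Seurat 3.0. The deposited tables of natural log values, ln(1 + UMIs × 10000 / total), hold 16416 genes and lack 86 of the 3376 day 0 barcodes and 88 of the 4780 day 14 barcodes, for reasons no source states. All 65800 and 93840 values compared with the counts matched within a relative tolerance of 0.001. These tables served only to set the cells, and all levels came from the counts (8690102 and 12317052 UMIs). No source used here gives the strand setting of the counting, and Bhlhe41, Cd9, Ptpn22 and Cd44 overlap other annotated genes.

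UMIs were summed over cells. Intervals are 95% Poisson (levels, joint detection), exact conditional (ratios) and Clopper-Pearson (shares), and a count of 0 allows up to 3 counts. Doublets were not called, and cells above 2 times the median UMIs were left out as an alternative. For each member the text names the 3 genes with the highest lower bound, over both days, of the positive to negative CPM ratio, with at least 20 UMIs in positive cells of each day, with no predicted, ribosomal protein, mitochondrial or immunoglobulin genes. For each list it names up to 3 genes of largest log2 ratio and the most abundant. The members, lists and rules were chosen with earlier results of these data known. Positions are from GENCODE M21 (GRCm38), where 31011 of 31053 identifiers matched. Ratios and joint detection were tested on simulated data. Python 3.11.15 with numpy 2.4.6 and scipy 1.17.1 was used, and edgeR 4.0.16 for TMM factors only. The alternatives changed the scaling, the UMI minimum, the cells and the heavy chain rule.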

Additional observations from a re-analysis of the deposited data

Results flagged for a closer look

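Between heavy chain states, the day 14 over day 0 ratio of Plac8 lay on opposite sides of 1. It was 1.17 in IgM+IgD cells, 1.18 in IgM cells without IgD and 1.91 (1.37 to 2.70) in IgG cells, and 0.620 in IgA cells, each with an interval that excludes 1. The difference between the states was not tested, since each day was 1 library. In the IgG cells of day 14, 72 of 117 Plac8 UMIs came from 1 of 28 cells, and without the highest cell of each day the IgG levels were 361 CPM at day 14 and 376 CPM at day 0, rather than 868 and 454 CPM. Plasma marker cells made up 30 of 89 IgA cells at day 0 and 27 of 62 at day 14, and Plac8 was low in them.

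The barcodes left out of the normalized tables, which enter no comparison above, held more Basp1 and Cd44 at day 14 than at day 0. Basp1 was at 58.1 CPM (36.0 to 88.8) against 19.5 CPM (7.83 to 40.1), a ratio of 2.99 (1.22 to 8.31), in 4 of 88 and 5 of 86 barcodes. Cd44 was at 74.7 CPM (49.2 to 109) against 27.8 CPM (13.3 to 51.2), a ratio of 2.69 (1.26 to 6.22), in 12 of 88 and 9 of 86 barcodes. At least 2 UMIs of T and NK cell genes were present in 60 of the 86 and 52 of the 88 barcodes.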

How the results depend on the processing

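The counts of 1 member higher and 3 lower at day 14 were the same under all UMIs as denominator, TMM factors, median-of-ratios factors, all barcodes, thinning, and 4 ways of leaving out cells, 2 of them chosen after seeing the data. With IgM+IgD cells only, Nt5e had too few UMIs and 2 members were lower, and with equal state shares, chosen after seeing the data, 2 were lower, without Bhlhe41. Over the alternatives the ratio ranged from 1.53 to 1.80 for Ptpn22, from 0.389 to 0.690 for Bhlhe41, from 0.424 to 0.536 for Nt5e and from 0.313 to 0.507 for Basp1. Of all genes, 117 were higher and 441 lower. With TMM factors these were 181 and 299, median-of-ratios factors gave 182 and 295, and with all barcodes 207 were higher. With no minimum beyond 1 UMI 1729 were higher and 2485 lower, and 5 members were lower, Zbtb32 and Cd5 included. A minimum of 200 UMIs gave 40 and 130, and 2 members were lower, since Nt5e had fewer UMIs. Of the 5 members higher in switched cells, 4 passed (not Cd9) with a class minimum of 1 or 5 UMIs, without other-cell or plasma marker cells, without cells above 2 times the median UMIs and, chosen after seeing the data, without plasma marker cells, and 2 passed after thinning. The 3 pairs were 7 without depth matching and 0 after thinning, without cells above 2 times the median UMIs, and without cells with other-cell or plasma markers, where fewer pairs, 7, 14 and 14, reached the minimum. With 20 bins, or without plasma marker cells, 2 passed (not Bhlhe41 with Cd44). Within IgM+IgD cells, where 11 pairs reached the minimum, Cd9 with Ptpn22 and Cd9 with Cd44 passed. Basp1 with Cd44 was not among the pairs that passed there. That pair is not read as absent, since Basp1 was found in only 33 of 1684 and 18 of 2389 of these cells. No paired analysis was possible because each group was 1 library.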

Other observations

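Lambda light chains were more frequent among Cd9-positive cells than among all cells of the same library. Cells with at least 3 light chain constant region UMIs were used, and a cell was called lambda when its lambda UMIs exceeded its kappa UMIs. Of such Cd9-positive cells, 14 of 117 or 12% (6.70% to 19.3%) were lambda at day 0 and 26 of 180 or 14.4% (9.66% to 20.4%) at day 14. Over all such cells the shares were 7.12% (6.26% to 8.06%) and 4.85% (4.25% to 5.52%), so the intervals overlapped at day 0 and not at day 14. The share among Nt5e-positive cells was 1 of 85 and 4 of 62.

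The variable genes known from B-1a cells were nearly absent, with 2 UMIs of Ighv11-2 at day 0 and 1 UMI each of Igkv14-126 and Igkv4-91 at day 14. This carries little weight, since only 18 cells at day 0 and 12 at day 14 had 3 or more UMIs of any heavy chain variable gene.

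Apart from the marker lists, germinal center genes differed between days, with 6 of 10 lower at day 14 and none higher. The signalling regulator gene Rgs13 was at 24.6 and 8.71 CPM. Of 21 interferon-gamma response genes, 15 were higher at day 14 and none lower, with a median log2 ratio of 1.15.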
